A study of Homo sapiens with 48 samples.

Results

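The 10 genes described here are ACTA2, TAGLN, CNN1, MYL9, CALD1, TPM1, TPM2, TPM4, MYH9 and VCL, a set of contractile myofibroblast and tropomyosin genes taken by name from the table of gene counts. They are 10 of the 19847 genes of that table, and all 10 were among the 9991 genes that passed a floor of 10000 summed counts and entered the test. Their alternative exons were taken from the table of exon inclusion. RNA was from IMR90 cells, human fibroblasts from normal lung tissue, that carried ER:RAS G12V in every group. In such a construct the mutant RAS oncoprotein is fused to the hormone-binding part of the oestrogen receptor, and 4OHT (4-hydroxytamoxifen) switches it on. Cells were given DMSO, the solvent, or 4OHT for 6 days, were then transfected with siRNA and were kept for another 2 days in medium with 0.5% serum. The siRNAs were non-targeting (siNT1 and siNT2), against SF3B1 (siSF3B1-13 and siSF3B1-16), a protein of the spliceosome that recognises the branch point, or against RBM39 (siRBM39-06 and siRBM39-08), an RNA-binding splicing factor. The 48 libraries fell into 6 groups of 8, named DMSO siNT, DMSO siSF3B1, DMSO siRBM39, 4OHT siNT, 4OHT siSF3B1 and 4OHT siRBM39, and each group held 2 siRNAs with 4 replicates each. The study's methods call replicates in vitro independent experiments, and the labels of these libraries do not say which cultures they came from. Because bulk RNA was sequenced, fewer cells of a kind and less RNA per cell cannot be told apart.

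Fibroblasts pull on their surroundings with bundles of actin filaments and non-muscle myosin, which are tied to the outside through focal adhesions. A myofibroblast is a fibroblast with strong bundles of this kind, and it is marked by smooth muscle genes such as ACTA2, many of which are driven by the factor SRF with its MRTF partners, which bind a DNA element called the CArG box. Tropomyosins are rod-like dimers that lie along the actin filament and set which other proteins can bind it. Each tropomyosin gene makes several forms by choosing between alternative exons, and in TPM1 and TPM2 a pair of neighbouring exons of equal length is used one at a time, so that a transcript holds one or the other. The choice between such exons in TPM1 is a textbook case of tissue-dependent splicing.

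The pair of 76-nucleotide (nt) exons of TPM1 carried the strongest result, and their sequences are therefore given first. On GRCh37 with GENCODE gene models, the upstream exon of the pair lies at chr15:63353397-63353472 and the downstream exon at chr15:63353912-63353987, on the + strand. Capitals mark the bases at which the exons of a pair differ.

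TPM1 upstream exon: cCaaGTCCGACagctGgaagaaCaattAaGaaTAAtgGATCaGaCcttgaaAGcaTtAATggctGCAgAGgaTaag
TPM1 downstream exon: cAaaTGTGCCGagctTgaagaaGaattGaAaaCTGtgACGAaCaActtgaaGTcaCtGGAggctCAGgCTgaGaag

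The exons of the TPM1 pair were identical at 43 of 76 positions (56.6%), and the longest run of identical bases was 6. Reads of 50 bases over a junction could therefore be assigned to one exon or the other. The pair of TPM2, on the - strand of chromosome 9 at chr9:35685061-35685136 (upstream in the transcript) and chr9:35684729-35684804 (downstream), is shown for comparison.

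TPM2 upstream exon: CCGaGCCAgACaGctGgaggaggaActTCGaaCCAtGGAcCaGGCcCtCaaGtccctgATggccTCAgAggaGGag
TPM2 downstream exon: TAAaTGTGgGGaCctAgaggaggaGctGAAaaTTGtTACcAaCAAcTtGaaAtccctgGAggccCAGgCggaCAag

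These exons were identical at 40 of 76 positions (52.6%). Across the genes, the upstream exons of TPM1 and TPM2 were identical at 52 positions (68.4%) and the downstream exons at 59 (77.6%), so each exon was closer to its counterpart in the other gene than to its neighbour. The longest identical run between the genes was 11 bases. The 60 intron bases before each TPM1 exon are shown because the pyrimidines and the branch point that the early spliceosome reads lie there, with the last bases of the intron in capitals.

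before the TPM1 upstream exon: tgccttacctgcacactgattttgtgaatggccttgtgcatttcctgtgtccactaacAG
before the TPM1 downstream exon: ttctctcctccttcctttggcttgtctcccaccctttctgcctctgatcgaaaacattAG

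Pyrimidines were 61.7% of these 60 bases before the upstream exon and 75.0% before the downstream exon. The corresponding shares in TPM2 were 60% and 71.7%, so in both genes the downstream exon of the pair had the more pyrimidine-rich intron end.

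The libraries held 31467221 to 52734636 gene counts each. SF3B1 was at 309 to 392 CPM (gene counts scaled to a common library size with TMM factors) in DMSO siNT and at 30.2 to 35 CPM in DMSO siSF3B1, and RBM39 was at 157 to 184 CPM in DMSO siNT and at 24 to 30.7 CPM in DMSO siRBM39. In 4OHT, each target was likewise lower in every library of its own siRNAs than in every siNT library. RBM39 was higher after siSF3B1, at 275 to 318 CPM in DMSO. In 4OHT it was at 232 to 259 CPM, against 114 to 127 CPM in 4OHT siNT. SF3B1 was at 387 to 540 CPM in DMSO siRBM39 and at 223 to 443 CPM in 4OHT siRBM39, which overlapped with siNT. The part of the other target's level in the results below was not tested. All 10 fibroblast markers were detected at a mean of at least 1 CPM in every group, while 0 of 8 striated muscle markers reached that level in any group. The summed fibroblast markers were at 52955 to 60110 CPM in DMSO siNT and at 14761 to 15539 CPM in 4OHT siNT. The summed 7 smooth muscle markers outside the set were at 352 to 412 CPM and 330.0 to 353 CPM in the same groups. The part of these markers in the results below was not tested. Replicate 4 of siRBM39-08 in 4OHT stood apart, with summed epithelial markers at 59.1 CPM where the rest of its group had 3.34 to 8.45 CPM. For CNN1, TPM2, TAGLN, MYL9, CALD1, TPM4 and the TPM1 downstream exon, values after siRBM39 in 4OHT are given with and without this library. Its part in the results was not tested.

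Most of the set was lower with 4OHT. All libraries were of cells with ER:RAS, so 4OHT itself and the RAS it switches on cannot be told apart in them. Between DMSO siNT and 4OHT siNT, 9 of the 10 members fell and 0 rose at an adjusted p under 0.05, where 39.1% of all 9991 genes fell and 39% rose. The 9 members that fell did not overlap between the groups, where 34.7% of all genes were lower without overlap, and the median log2 fold change of the 10 members was -0.54, against -0.00 over all genes tested. The siRNAs moved fewer members and not in one direction. After siSF3B1 in DMSO, 1 member rose and 2 fell (36.5% and 36.2% of all genes), and in 4OHT 0 rose and 4 fell (39.4% and 37.6%). After siRBM39 in DMSO, 3 rose and 0 fell (23.9% and 22.2%), and in 4OHT 5 rose and 1 fell (32.2% and 24.3%). The median log2 fold changes of the members were 0.00, -0.14, 0.07 and 0.12 in these 4 comparisons, against 0.02 to 0.05 over all genes. After siSF3B1 the shares of members called were below or near those of all genes in each direction. After siRBM39 the share of members that rose was near that of all genes in DMSO and above it in 4OHT. Fewer members fell than these shares give for 10 genes. These differences rest on few genes, and several of the calls were lost in alternatives given below. In each treatment the siSF3B1 and siRBM39 comparisons share the same siNT libraries, and the 4OHT comparison uses both sets of siNT libraries.

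**Figure D1:**
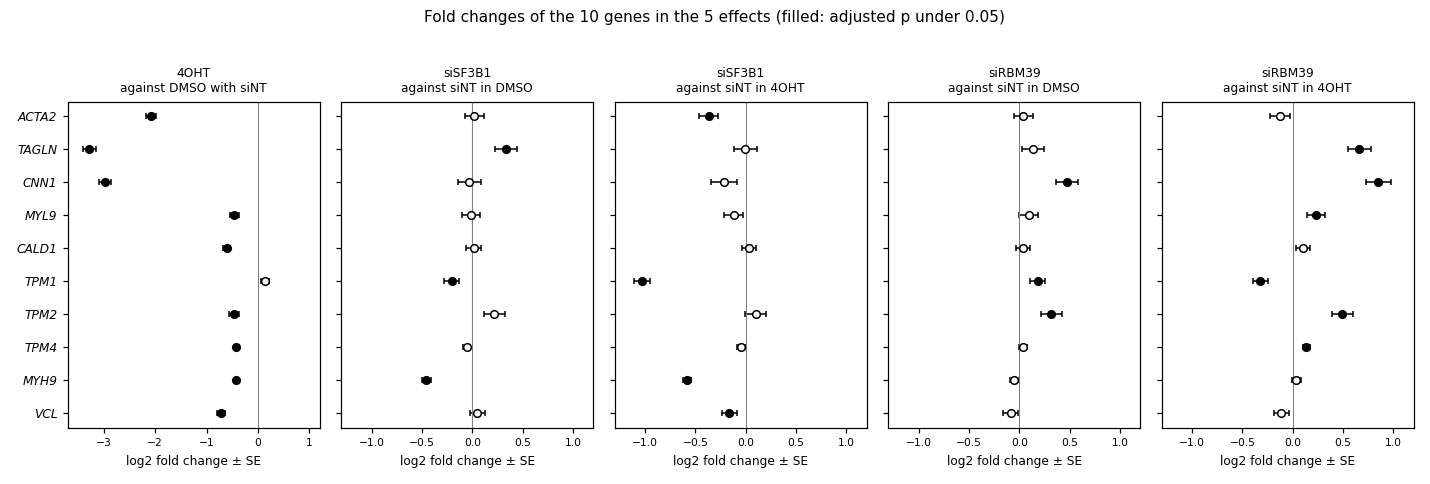
The plot gives the log2 fold change of each of the 10 genes in the 5 comparisons, with the standard error as a bar, and filled points mark an adjusted p under 0.05. The axis of the 4OHT panel is wider than those of the other 4. TAGLN, CNN1 and ACTA2 lie at -3.28, -2.98 and -2.08 for 4OHT against DMSO, far below the other members, and TPM1 lies at -1.03 after siSF3B1 in 4OHT.

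Within the set, ACTA2, TAGLN and CNN1, markers of smooth muscle differentiation, showed the largest falls with 4OHT. Smooth muscle genes outside the set went both ways, with LMOD1 lower and SMTN higher, as given below. ACTA2, the smooth muscle actin of stress fibres, was at 188 CPM in the lowest, 195 in the median and 231 in the highest DMSO siNT library, and at 44.3, 47.6 and 49.9 CPM in 4OHT siNT. Its log2 fold change was -2.08 (SE 0.098, adjusted p = 2.87e-24), so that it fell by 76.4%. TAGLN (transgelin, SM22), an actin-bundling protein, was at 316, 329 and 356 CPM and then at 31.3, 34.4 and 36.6 CPM. TAGLN had the largest change of the set, at -3.28 (SE 0.121, adjusted p = 1.19e-28), and fell by 89.7%. CNN1 (calponin 1), which binds actin and restrains myosin, was the least abundant member and went from 30.6, 32.9 and 37.1 CPM to 3.57, 4.26 and 4.84 CPM, a log2 fold change of -2.98 (SE 0.125, adjusted p = 2.94e-26). Every DMSO library lay above every 4OHT library for these genes within each siRNA target too, as the plot of levels by group shows.

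**Figure D2:**
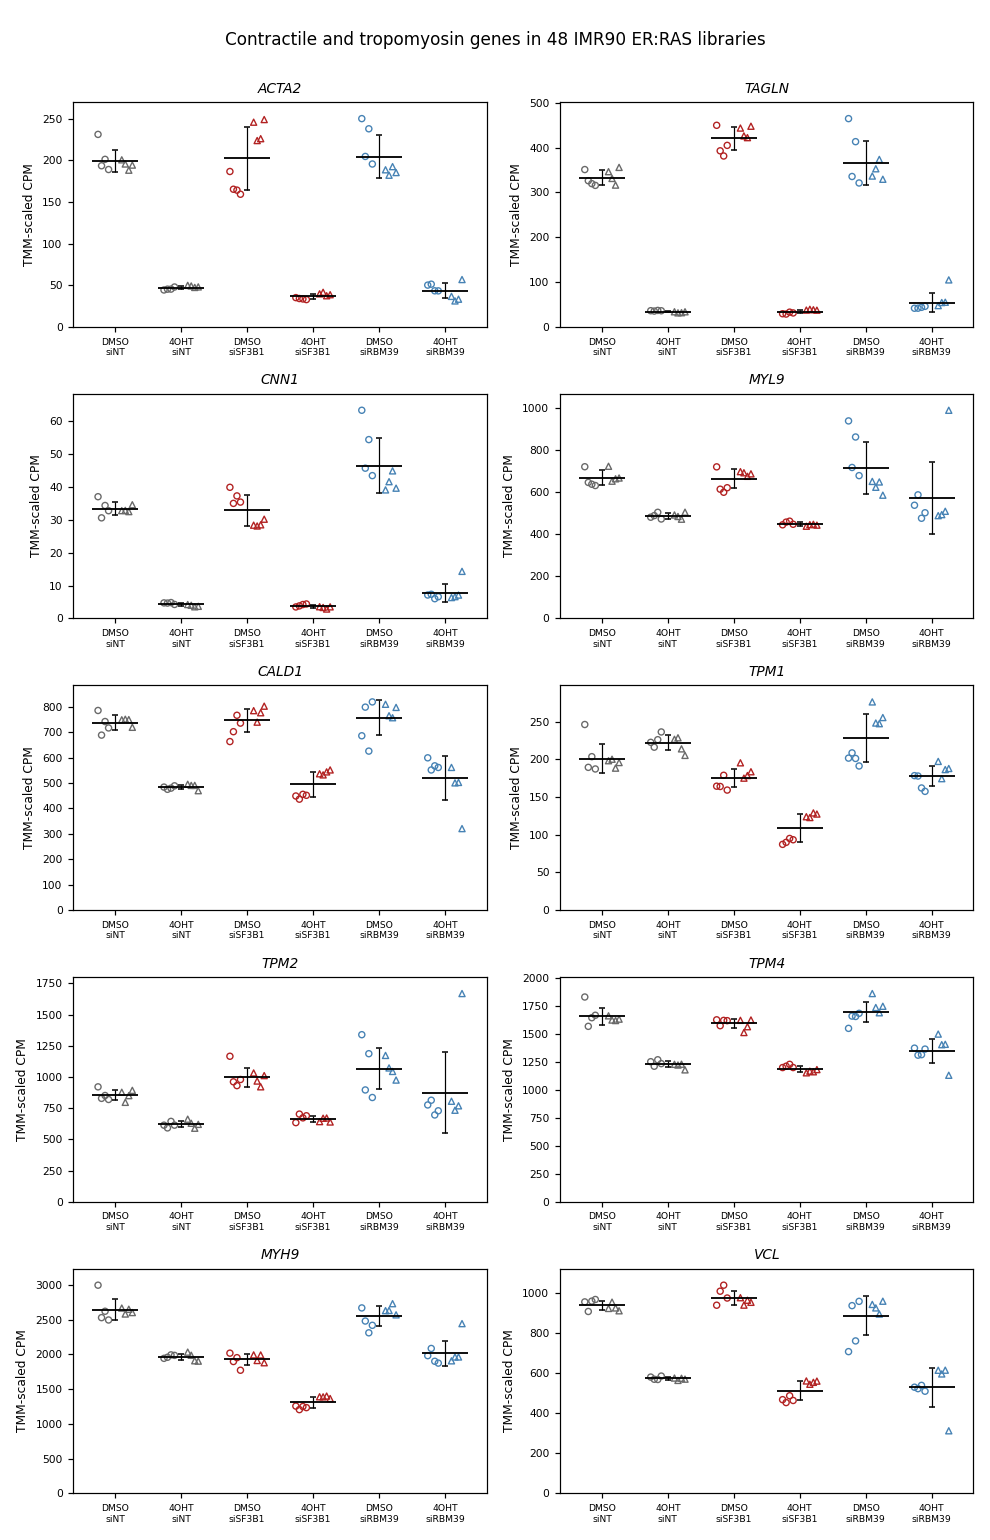
Each panel gives the CPM of 1 gene in the 48 libraries, in the 6 groups, on a linear axis from 0, with bars for the mean and SD of 8 libraries. Circles are siNT1, siSF3B1-13 and siRBM39-06 and triangles the other siRNA of each target. ACTA2, TAGLN and CNN1 drop with 4OHT under each siRNA target, whereas TPM1 is lowest in 4OHT siSF3B1, at 87.2 to 129 CPM.

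The general parts of the contractile machinery fell less. MYL9, a regulatory light chain of smooth muscle and non-muscle myosin, was at 631, 657 and 722 CPM in DMSO siNT and at 471, 486 and 504 CPM in 4OHT siNT, and fell by 27.1% (log2 fold change -0.46, SE 0.093, adjusted p = 2.04e-05). MYH9, the heavy chain of non-muscle myosin IIA, had the highest counts of the set, at 2494, 2610.3 and 2995 CPM against 1902, 1971 and 2032 CPM, and fell by 25.8% (-0.43, SE 0.045, adjusted p = 3.91e-12). CALD1 (caldesmon), which blocks myosin on actin and stabilises tropomyosin, went from 688, 745 and 785 CPM to 469.8, 486 and 495 CPM (-0.61, SE 0.072, adjusted p = 1.48e-10). VCL (vinculin), which links the actin bundles to focal adhesions, went from 909, 941 and 968 CPM to 564, 573 and 586 CPM (-0.71, SE 0.075, adjusted p = 6.84e-12). In all of these the ranges of the groups were apart.

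The tropomyosin genes did not move together. TPM2 was at 797, 851 and 921 CPM in DMSO siNT and at 589, 617 and 662 CPM in 4OHT siNT (log2 fold change -0.46, SE 0.104, adjusted p = 8.66e-05). TPM4, the gene of a short non-muscle tropomyosin, was at 1566, 1637 and 1828 CPM and then at 1178, 1228 and 1268 CPM (-0.43, SE 0.037, adjusted p = 1.31e-14). Both therefore fell by about the same share as MYL9 and MYH9. TPM1 was at 187, 197 and 246 CPM in DMSO siNT and at 205, 224 and 236 CPM in 4OHT siNT, and was the one member whose groups overlapped (0.14, SE 0.076, adjusted p = 0.0904). TPM1 passed the threshold as higher in 4OHT in 4 of the alternatives, among them the fit without replicate 1, in which its log2 fold change was 0.20. In DMSO siNT, replicate 1 of siNT1 had the highest TPM1, at 246 CPM. Tropomyosin genes share sequence, as do actin genes, and how reads shared by such genes were counted is not given in the sources used here.

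Levels are compared between genes only per length of transcript, in the corrected RPKM (cRPKM) of the deposited table. In DMSO siNT, TPM4 was the highest at a mean of 660.1 cRPKM (SD 27.1), followed by MYL9 at 592, TPM2 at 419, TAGLN at 386, MYH9 at 368, CALD1 at 219, VCL at 176, TPM1 at 166, ACTA2 at 163 and CNN1 at 22.2. Neighbours in this order overlapped between TPM4 and MYL9, from TPM2 through TAGLN to MYH9, and from VCL through TPM1 to ACTA2. In 4OHT siNT the order was TPM4 at 486, MYL9 at 429, TPM2 at 302, MYH9 at 272, TPM1 at 182, CALD1 at 143, VCL at 107, TAGLN at 39.4, ACTA2 at 38.3 and CNN1 at 2.81 cRPKM, where TAGLN and ACTA2 alone overlapped as neighbours. TAGLN thus went from the fourth place to the eighth, and TPM1 from the eighth to the fifth.

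Knockdown of SF3B1 lowered MYH9 in both treatments and TPM1 most clearly in 4OHT. TPM1 was at 205, 224 and 236 CPM in 4OHT siNT and at 87.2, 109 and 129 CPM in 4OHT siSF3B1, with no overlap, and fell by 51.1% (log2 fold change -1.03, SE 0.077, adjusted p = 1.46e-16). In DMSO, TPM1 was at 159, 177 and 195 CPM after siSF3B1, which overlapped with DMSO siNT (-0.20, SE 0.076, adjusted p = 0.0150). This call in DMSO was lost in 4 of 14 alternatives, namely with a minimum of 1 count, with siNT2 alone and without replicate 1 or 2 (adjusted p = 0.0572 to 0.118). The difference between these effects was itself past the threshold, at -0.83 (SE 0.108, adjusted p = 2.75e-08). The siRNAs differed in size, since TPM1 in 4OHT was at 87.2 to 95.1 CPM with siSF3B1-13 and at 122.8 to 128.9 CPM with siSF3B1-16, both below every siNT library.

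MYH9 was at 1771, 1932 and 2017 CPM in DMSO siSF3B1 and at 1205, 1310.2 and 1400.0 CPM in 4OHT siSF3B1. It fell by 27.2% in DMSO (log2 fold change -0.46, SE 0.045, adjusted p = 1.08e-12) and fell by 33.3% in 4OHT (-0.58, SE 0.045, adjusted p = 3.43e-16), with no overlap with siNT in either treatment. The difference between these effects on MYH9 was -0.13 (adjusted p = 0.115), and passed in 3 of 14 alternatives (adjusted p = 0.00623 to 0.0451). Both siRNAs against SF3B1 gave values below the siNT range in each treatment.

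The smooth muscle markers were not lowered further as a group by siSF3B1. TAGLN rose in DMSO, from 316 to 356 CPM in siNT to 381 to 449.6 CPM (log2 fold change 0.34, SE 0.110, adjusted p = 0.00586; adjusted p = 0.0675 with siNT2 alone), and in 4OHT its log2 fold change was -0.00 (adjusted p = 0.982). In 4OHT the siRNAs differed, with TAGLN at 28.5 to 32.8 CPM for siSF3B1-13 and 37.1 to 39.2 CPM for siSF3B1-16. The siNT libraries were at 31.3 to 36.6 CPM, and with siSF3B1-13 alone TAGLN passed as lower (-0.17, adjusted p = 0.0292). ACTA2 fell in 4OHT, to 32.8, 36.3 and 41.5 CPM (-0.37, SE 0.096, adjusted p = 0.000649), and differed by 0.02 in DMSO (adjusted p = 0.851). The difference between these effects on ACTA2 was -0.39 (SE 0.134, adjusted p = 0.0191), and did not pass with either siNT alone or without replicate 3 or 4 (adjusted p = 0.0541 to 0.189). In DMSO the siRNAs pulled ACTA2 apart, with 159 to 187 CPM for siSF3B1-13 and 224 to 249 CPM for siSF3B1-16 on either side of the siNT range. VCL fell in 4OHT to 454, 516 and 562 CPM (-0.17, SE 0.075, adjusted p = 0.0415), a call lost in 6 of 14 alternatives (adjusted p = 0.0576 to 0.436). These were a minimum of 1 count, siSF3B1-16 alone (-0.08), either siNT alone and leaving out replicate 2 or 3. CNN1, MYL9, CALD1, TPM2 and TPM4 did not pass in either treatment, with log2 fold changes from -0.22 (CNN1 in 4OHT) to 0.22 (TPM2 in DMSO, adjusted p = 0.0563). CNN1 in 4OHT passed as lower in 4 of 14 alternatives and TPM2 in DMSO as higher in 5. CALD1 in 4OHT passed as lower with siSF3B1-13 alone (-0.12, adjusted p = 0.0220), and TPM4 with siSF3B1-16 alone (-0.11, adjusted p = 0.0342). The siRNAs split CALD1 in 4OHT, with 436 to 455 CPM for siSF3B1-13 and 532 to 551 CPM for siSF3B1-16. These lay on either side of the siNT range of 469.8 to 495 CPM. Over all genes, 37.8% differed in their siSF3B1 effect between the treatments, against the 2 members named here.

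Knockdown of RBM39 raised CNN1 in both treatments and TPM2 in 4OHT, while the TPM2 call in DMSO depended on the libraries used. CNN1 was at 39.2, 44.2 and 63.4 CPM in DMSO siRBM39 (log2 fold change 0.48, SE 0.112, adjusted p = 0.000466) and at 6.03, 6.89 and 14.3 CPM in 4OHT siRBM39 (0.85, SE 0.124, adjusted p = 1.27e-07), above the siNT libraries of its treatment in each case. In 4OHT siRBM39 it still lay below every DMSO library. TPM2 was at 836, 1059 and 1339 CPM in DMSO siRBM39 (0.32, SE 0.104, adjusted p = 0.0108), which overlapped with siNT, and at 696, 773 and 1669 CPM in 4OHT siRBM39 (0.49, SE 0.104, adjusted p = 8.09e-05), which did not. The TPM2 call in DMSO was lost in 5 of 14 alternatives, with either siNT alone and without replicate 1, 2 or 3 (adjusted p = 0.0528 to 0.133). The highest TPM2 and CNN1 values in 4OHT siRBM39 were those of the library that stood apart, and without it the log2 fold changes in 4OHT were 0.29 for TPM2 (adjusted p = 3.71e-05) and 0.67 for CNN1 (adjusted p = 7.36e-08).

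TAGLN rose after siRBM39 in 4OHT, to 41.5, 46.6 and 105 CPM (log2 fold change 0.66, SE 0.112, adjusted p = 2.45e-06), and without the library that held 105 CPM the log2 fold change was 0.46 (adjusted p = 3.54e-07). In DMSO its log2 fold change was 0.14 (adjusted p = 0.320), and the effects differed between the treatments by 0.53 (SE 0.157, adjusted p = 0.0171). Without the library that stood apart this difference was 0.32 (adjusted p = 0.0122). It did not pass in 6 of 14 alternatives, with siRBM39-06 alone (0.13), with either siNT alone and without replicate 2, 3 or 4 (adjusted p = 0.0520 to 0.321), and without replicate 4 it was 0.28. MYL9 passed in 4OHT (0.23, SE 0.093, adjusted p = 0.0295) and did not without that library (0.07, adjusted p = 0.293) or in 7 other alternatives. CALD1 did the reverse, with 0.10 (adjusted p = 0.213) over the 8 libraries and 0.18 (adjusted p = 0.00260) without it, since this library held CALD1 at 321 CPM and the others at 501 to 599 CPM. TPM4 rose slightly in 4OHT, to 1129, 1367 and 1497 CPM (0.14, SE 0.037, adjusted p = 0.00183), and did not pass with siNT1 alone or without replicate 1 (adjusted p = 0.139 and 0.0562). The 1129 CPM was that of the library that stood apart, and the others were at 1309 to 1497 CPM. ACTA2, MYH9 and VCL did not pass after siRBM39 in either treatment, with log2 fold changes from -0.13 (ACTA2 in 4OHT) to 0.04. Single siRNAs gave calls for them in both directions. With siRBM39-06 alone, ACTA2 rose in DMSO (0.15, adjusted p = 0.0196), and MYH9 (-0.10, adjusted p = 0.0304) and VCL (-0.16, adjusted p = 0.00285) fell there. VCL also fell with it in 4OHT (-0.12, adjusted p = 0.0201). With siRBM39-08 alone, ACTA2 fell in 4OHT (-0.27, adjusted p = 0.0157).

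TPM1 was lower after siRBM39 in 4OHT and not in DMSO. In 4OHT it fell to 158, 178 and 197 CPM (log2 fold change -0.32, SE 0.076, adjusted p = 0.000388), below every siNT library. In DMSO it was at 191, 228 and 276 CPM (0.18, SE 0.076, adjusted p = 0.0426). That rise rested on one siRNA, since siRBM39-08 gave 247 to 276 CPM and siRBM39-06 gave 191 to 209 CPM, and with siRBM39-06 alone the log2 fold change was -0.01 (adjusted p = 0.908). It was also lost with either siNT alone and without replicate 2, 3 or 4 (adjusted p = 0.0822 to 0.281). The difference between the effects was -0.51 (SE 0.108, adjusted p = 0.000680). Over all genes, 14.1% differed in their siRBM39 effect between the treatments, against TPM1 and TAGLN in the set.

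Exon inclusion was measured as percent spliced in (PSI), the share of spliced reads that include an exon. The 10 genes list 113 cassette exons, of which 97 were covered in every library and 10 also ranged by at least 5 points over the libraries and were tested. In TPM1, TPM2 and CALD1, 34 were listed, 33 were covered and 9 were tested, 6 of them in TPM1, 3 in TPM2 and 0 in CALD1. Of the 9, 3 were called between DMSO siNT and 4OHT siNT (1.60% of 7673 exons tested), 3 after siSF3B1 in DMSO (26.8%), 3 after siSF3B1 in 4OHT (30%), 4 after siRBM39 in DMSO (8.26%) and 4 after siRBM39 in 4OHT (9.34%). A call needed an adjusted p under 0.05 in limma and a difference of mean PSI of at least 5 points. No exon of the 9 was called for a difference of effects between the treatments by limma, where 2 (siSF3B1) and 3 (siRBM39) had an unadjusted p under 0.05, and 0.613% and 0.0391% of all exons were called.

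The choice within the TPM1 pair switched with 4OHT. In DMSO siNT the upstream exon was included at 29.7% in the lowest, 35.8% in the median and 43.04% in the highest library and the downstream exon at 61.2%, 66.1% and 69.1%. In 4OHT siNT the upstream exon was at 77.5%, 81.7% and 86.7% and the downstream exon at 13.2%, 18.3% and 21.4%. The predominant exon was thus the downstream one in every DMSO siNT library and the upstream one in every 4OHT siNT library. The mean of the upstream exon rose by 45.6 points, from 36.3% ± 4.16 to 81.9% ± 3.04 (SD, n = 8), with an adjusted p of 6.11e-16 in limma. The mean of the downstream exon fell by 47.4 points, from 65.7% ± 2.41 to 18.3% ± 2.56, with an adjusted p of 1.05e-18. By the size of the difference these were places 1 (downstream exon) and 2 (upstream exon) among the 7673 exons in this comparison. This change in exon choice came without a called change in the TPM1 level. Between 225 and 731 reads lay behind each of these PSI values.

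**Figure D3:**
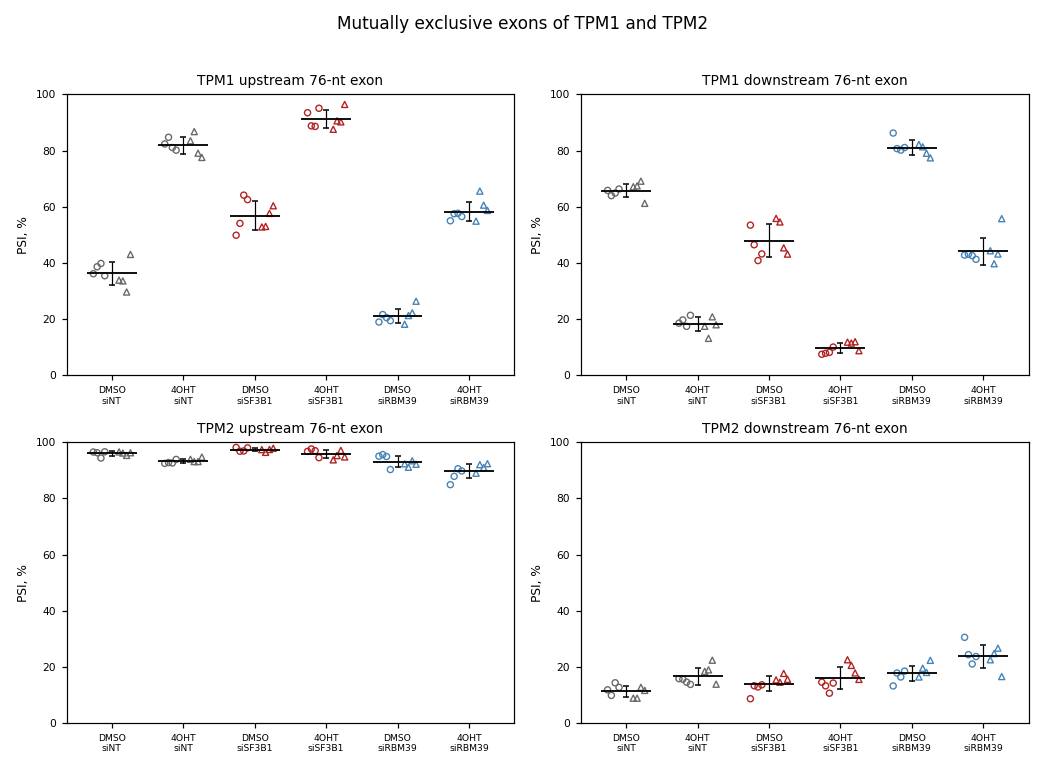
The plot gives the PSI of both exons of the TPM1 pair and of the TPM2 pair in the 48 libraries by group, with bars for the mean and SD of 8 libraries. The TPM1 upstream exon stands at a mean of 36.3% in DMSO siNT, 81.9% in 4OHT siNT and 91.3% in 4OHT siSF3B1 and the downstream exon mirrors it, whereas the TPM2 upstream exon stays between means of 89.7% and 97.4%.

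The siRNAs against the splicing factors moved this choice in opposite directions in both treatments. After siSF3B1 the upstream exon rose by 20.5 points in DMSO, to 49.9%, 55.9% and 64.1%, and by 9.44 points in 4OHT, to 87.6%, 90.4% and 96.4%. The downstream exon fell by 17.8 points in DMSO, to 40.9%, 45.9% and 55.9%, and fell by 8.61 points in 4OHT, to 7.53%, 9.46% and 12%. After siRBM39 the upstream exon fell by 15.2 points in DMSO, to 18.2%, 20.9% and 26.4%, and by 23.6 points in 4OHT, to 54.9%, 57.6% and 65.6%. The downstream exon rose by 15.3 points in DMSO, to 77.4%, 80.9% and 86.2%, and by 25.8 points in 4OHT, to 39.7%, 42.9% and 55.8%. In each of these 4 comparisons both exons were called in limma, with adjusted p from 1.28e-11 to 5.54e-05, and no library overlapped with the siNT libraries of its treatment. The exact two-sided permutation test over libraries gave p = 0.000155 each time, the smallest that 8 against 8 allows, and 0.000534 when adjusted over the 55 tests of exons, an intron and comparisons. This test treats the 8 libraries of a group as exchangeable, although they hold 2 siRNAs with 4 libraries each. As places by size of the difference among all exons, the downstream exon was 468 (DMSO) and 1524 (4OHT) after siSF3B1 and 173 and 62 after siRBM39.

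Each siRNA alone gave the same directions. The upstream exon differed by 21.4 points with siSF3B1-13 and 19.7 with siSF3B1-16 in DMSO, and by -16.1 points with siRBM39-06 and -14.2 with siRBM39-08. In 4OHT the values were 9.58 and 9.30 points for the siRNAs against SF3B1 and -25.2 and -21.9 points for those against RBM39. The library that stood apart had the highest downstream exon of 4OHT siRBM39, at 55.8% against 39.7% to 44.4% in the others, and without it the downstream exon still rose by 24.1 points. In 4OHT siRBM39 the mean of the upstream exon, at 58.3% ± 3.49, remained above that of DMSO siNT, at 36.3% ± 4.16. The lowest library of the first group, at 54.9%, was above the highest of the second, at 43.04%. The sum of the 2 PSI values in a library was 95.6 at the lowest, 102 in the median and 114 at the highest, near the 100 of a choice between 2 exons. For TPM2 the sums were 105, 111 and 118.

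Other exons of TPM1 moved after 1 of the siRNA targets. The 70-nt exon at chr15:63354775-63354844 and the 79-nt exon at chr15:63356263-63356341, both downstream of the pair, are shown with exon bases in capitals and 30 intron bases on either side.

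TPM1 70-nt exon: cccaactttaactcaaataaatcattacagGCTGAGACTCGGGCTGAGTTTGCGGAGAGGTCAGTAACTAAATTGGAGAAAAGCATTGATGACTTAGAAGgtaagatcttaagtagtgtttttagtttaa
TPM1 79-nt exon: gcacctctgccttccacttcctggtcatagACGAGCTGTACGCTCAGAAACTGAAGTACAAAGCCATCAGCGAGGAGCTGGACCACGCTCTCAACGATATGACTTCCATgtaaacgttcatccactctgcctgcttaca

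The 70-nt exon was included in nearly all spliced reads of the siNT libraries, at 97.99% to 100% in DMSO and 98.5% to 100% in 4OHT. After siSF3B1 it was at 86.6%, 89.6% and 95.1% in DMSO and at 87.7%, 90.9% and 94.7% in 4OHT, without overlap. It fell by 8.78 points in DMSO and fell by 8.56 points in 4OHT (adjusted p = 1.79e-11 and 4.45e-12 in limma). After siRBM39 the mean differed by 0.13 and -0.45 points and was not called. Pyrimidines made up 48.3% of the 60 bases before the 70-nt exon, and 46.7% before the neighbouring 63-nt exon, which was not called in any comparison.

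The 79-nt exon encodes an end of the protein known from striated muscle tropomyosin, and was placed by its length and 1 of its flanking introns only. It was at 0.00% to 4.63% in DMSO siNT and 0.48% to 2.54% in 4OHT siNT. After siRBM39 it was at 7.96%, 9.41% and 11.8% in DMSO and at 1.76%, 8.88% and 15.9% in 4OHT. It rose by 8.28 points in DMSO, where the groups did not overlap, and by 7.45 points in 4OHT, where they did (adjusted p = 2.70e-07 and 1.58e-06 in limma). After siSF3B1 the differences of -0.95 and 0.37 points were not called. Only 34 to 161 reads lay behind each value. Markers of striated muscle were near 0 in every library (MYH7 was at 0 in all 6 groups).

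A 126-nt exon near the start of TPM1, at chr15:63336226-63336351, is the second of another pair, whose first exon is known from smooth muscle. It rose with 4OHT by 5.77 points, from 88.4%, 91.2% and 92.9% to 95.6%, 96.6% and 97.7% (adjusted p = 7.05e-07 in limma). With siNT1 alone the difference was 4.17 points, under the 5 a call needed. The siNT siRNAs differed here in DMSO, with 91.5% to 92.9% for siNT1 and 88.4% to 90.8% for siNT2. Its partner at chr15:63335905-63336030 ranged by 4.85 points over the libraries, which left it untested, with means of 4.20% in DMSO siNT and 1.33% in 4OHT siNT. The 63-nt exon at chr15:63354414-63354476 was tested and not called, with group means from 97.5% to 99.7%. The other 3 covered exons of TPM1 were at 100% or within 0.16 points of it.

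**Figure D4:**
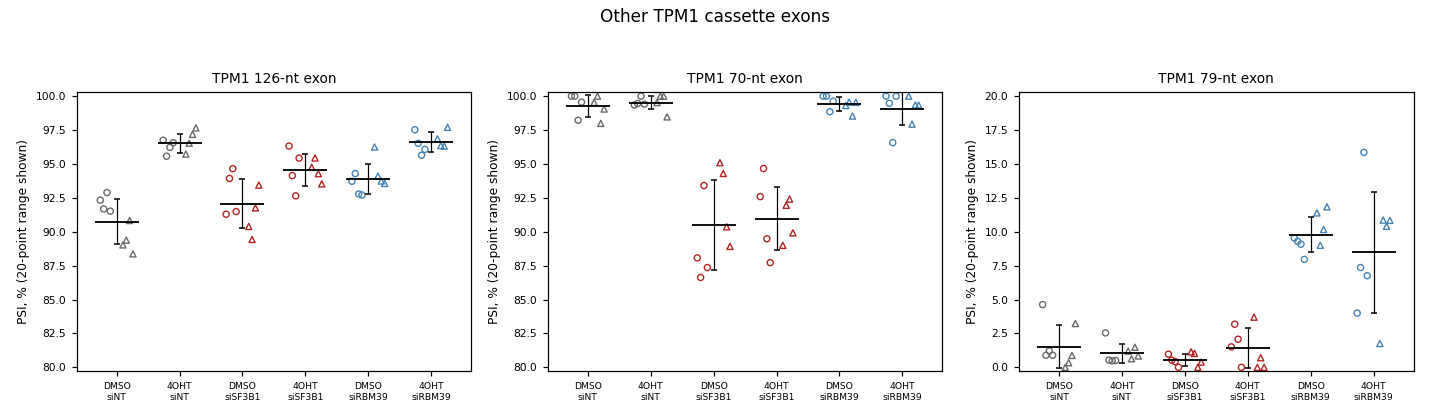
The plot gives the PSI of 3 further TPM1 exons in the 48 libraries by group, with bars for the mean and SD of 8 libraries and a separate y axis in each panel, each 20 points long and, for the 70-nt and 126-nt exons, not starting at 0. The 70-nt exon is lower in both siSF3B1 groups (means of 90.5% and 91.0%), the 79-nt exon is higher in both siRBM39 groups (9.78% and 8.48%), and the 126-nt exon is higher in 4OHT siNT (96.5%) than in DMSO siNT (90.8%).

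The TPM2 pair stayed with its upstream exon in every group. The downstream exon of TPM2 was at 8.96%, 11.8% and 14.5% in DMSO siNT, and was called after siRBM39 only, where it rose by 6.42 points in DMSO (adjusted p = 0.00446) and by 7.09 points in 4OHT (adjusted p = 0.0161), to 13.3%, 18.02% and 22.4% and to 16.7%, 24.1% and 30.6%. The groups overlapped in both treatments. The call in DMSO was lost with siNT1 alone or without replicate 2 (adjusted p = 0.0778 and 0.0557), and that in 4OHT with siNT2 alone or an offset of 0.001 (adjusted p = 0.298 and 0.0693). With 4OHT it differed by 5.31 points, to 13.9%, 15.8% and 22.5% (adjusted p = 0.0776 in limma). This difference passed in 4 of 13 alternatives. In limma these were siSF3B1-13 and siRBM39-06 alone, siSF3B1-16 and siRBM39-08 alone, and without replicate 4 (adjusted p = 0.00939 to 0.0365). The other was the permutation test (p = 0.000466, and 0.00122 when adjusted). The upstream exon of TPM2 had group means from 89.7% to 97.4% and moved by under 5 points in each comparison, so it was not called. A 381-nt exon of TPM2 was tested and not called, with libraries from 8.63% to 51.7% and 52 to 337 reads behind each value. CALD1, whose splicing is known to separate a smooth muscle form from a non-muscle form, had 16 covered exons, all with a range under 5 points. The widest range of CALD1 was 4.85 points, for a 78-nt exon with group means from 1.65% to 3.92%.

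The other 7 members had little variable splicing. Of their 79 listed cassette exons, 64 were covered and 1 was tested, a 67-nt exon of MYL9 with group means from 94.4% to 97.98% that was not called. All 41 cassette exons of MYH9 were covered, and none of them ranged by 5 points or more. CNN1 and TPM4 had no exon covered in every library. Over the introns of all 10 members, 108 were listed, 91 were covered and 1 was tested, a 228-nt intron of MYH9. Its mean retention rose from 0.05% to 1.85% after siSF3B1 in DMSO (adjusted p = 1.94e-06) and from 0.28% to 2.89% in 4OHT (adjusted p = 1.62e-07), which is under the 5 points a call needed. No intron of the members, of which this was the one tested, was therefore called in any of the 5 comparisons by limma, against 0.0953% of 5248 introns with 4OHT, 11.1% and 14.9% after siSF3B1 and 2.06% and 2.08% after siRBM39. The MYH9 intron had an unadjusted p under 0.05 in both siSF3B1 comparisons and in none of the others.

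Introns of TPM2 with larger differences were not tested, because in at least 1 library their reads were unevenly spread over the intron ends (balance p under 0.05). Without that filter, 3 were called. The mean retention of a 2082-nt intron was 17.3% ± 3.60 in DMSO siNT and 32.03% ± 3.51 in DMSO siSF3B1 (SD, n = 8). With 4OHT it was 10.1% ± 4.20 for siNT, 32.9% ± 5.39 for siSF3B1 and 20.3% ± 8.19 for siRBM39. Its differences were 14.7 points after siSF3B1 in DMSO, 22.8 points after siSF3B1 in 4OHT and 10.2 points after siRBM39 in 4OHT (adjusted p = 0.000132, 5.23e-10 and 0.000810 in limma). The introns of 129 nt and 513 nt were at 1.97% and 1.96% in 4OHT siNT and at 8.54% and 9.26% in 4OHT siSF3B1. These are the lengths of those on either side of the upstream exon of the TPM2 pair. The 513 nt run from that exon to the exon after the pair, and so span the downstream exon. Whether reads of the downstream exon enter the value was not tested. How uneven reads enter these values was not tested.

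Other genes of actin bundles and adhesions were split in direction. Of 27 other actin and myosin genes tested, 9 rose and 13 fell with 4OHT, with a median log2 fold change of -0.10 against -0.00 over all genes. Of all genes, 39% rose and 39.1% fell. LMOD1, which starts actin filaments in smooth muscle, fell the most, from a mean of 55.8 CPM to 1.10 CPM (log2 fold change -5.66, SE 0.15), and SMTN (smoothelin), a smooth muscle protein of stress fibres, rose the most, from 70.1 to 300.4 CPM (2.10, SE 0.10). Smooth muscle genes thus moved in both directions with 4OHT. After siSF3B1, 15 rose and 7 fell in DMSO (36.5% and 36.2% of all genes) and 10 and 11 in 4OHT (39.4% and 37.6%). In 4OHT, ACTG2, an actin of visceral smooth muscle, rose the most (25.8 to 43.9 CPM). MYH10, the heavy chain of non-muscle myosin IIB, fell the most there (27 to 8.76 CPM). After siRBM39, 9 rose and 2 fell in DMSO (23.9% and 22.2% of all genes) and 8 and 4 in 4OHT (32.2% and 24.3%). In 4OHT, ACTG2 rose to 52.0 CPM and PPP1CB, a catalytic subunit of myosin phosphatase, fell from 187 to 146 CPM.

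Of 22 focal adhesion genes, 11 rose and 9 fell with 4OHT (39% and 39.1% of all genes). Their median log2 fold change was 0.16, against -0.00 over all genes. ITGA1, an integrin chain that binds collagen, rose from 93.3 to 279.6 CPM, and TES (testin), an adhesion protein, fell from 71.7 to 16.1 CPM. After siSF3B1, 6 rose and 9 fell in DMSO (36.5% and 36.2% of all genes) and 5 and 9 in 4OHT (39.4% and 37.6%). Those in 4OHT were led by BCAR1, an adaptor that senses stretch (207 to 320.3 CPM), and VASP, which extends actin filaments (127 to 41.9 CPM). After siRBM39, 5 rose and 8 fell in DMSO (23.9% and 22.2% of all genes) and 6 and 5 in 4OHT (32.2% and 24.3%). Those in 4OHT were led by TNS1 (tensin 1, 104 to 162 CPM) and ILK, a scaffold of integrin adhesions (203 to 89.2 CPM).

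The promoters of the members were searched for the CArG box, read as CC, then 6 bases of A or T, then GG, which reads the same way on both strands. RefSeq entries on GRCh38.p14, covering 250 bases before and 50 after a transcript start, were found for 8 of the 10 members, with 15 entries in all. An exact box was found in 1 of them, an entry of TPM4, and a box with at most 1 base of G or C among the 6 in 3 members, namely ACTA2, CALD1 and TPM4. Of all 35116 promoters of the same length, 1.29% held an exact box and 8.13% one with at most 1 such base. The second ACTA2 entry, at chr10:88952724-88953023 on the - strand, held 2, beginning 121 and 71 bases before the start, and the 250 bases before the start are shown because ACTA2 is the defining gene of the set and no other entry held more than 1. Capitals mark the boxes.

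ACTA2: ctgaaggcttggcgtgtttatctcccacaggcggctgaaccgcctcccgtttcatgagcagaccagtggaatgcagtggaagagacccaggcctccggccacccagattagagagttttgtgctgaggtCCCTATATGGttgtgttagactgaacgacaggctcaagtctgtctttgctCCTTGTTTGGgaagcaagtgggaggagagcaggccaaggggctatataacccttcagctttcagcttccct

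The exact box of TPM4 was CCAAATAAGG, beginning 173 bases before the start, and the box in the third CALD1 entry was CCTAAAGAGG, beginning 26 bases before it. A match of these letters is a description of the window and no sign of binding.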

How the data were processed

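RNA of 48 libraries (polyA capture, 50-base single-end reads per the study's methods) was aligned by the authors with vast-tools version 2 and its hg19-named annotation. The deposited table gives raw counts per gene and cRPKM, an RPKM that the authors corrected for mappability, and the second deposited table gives PSI, in percent, for each event in each library, beside reads and a quality label. The deposited normalised CPM table was not used. Event coordinates in that file are those of GRCh38, so exons were placed on GRCh37 (GENCODE v44lift37) by gene, exon length and flanking intron lengths, and no coordinates were converted.

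Groups follow the sample titles. 4 libraries titled 4OHT siNT2 carry a treatment label naming siNT1, and the titles were followed. The methods state 3 replicates, and the labels give 4 per siRNA. Counts were fitted over all 48 libraries with edgeR 4.0.16 (TMM, quasi-likelihood test) in R 4.3.3 for genes with at least 10000 counts in total, and PSI with limma 3.58.1 on the logit of 0.01 + 0.98 × PSI. Exons needed the coverage label VLOW or better throughout and a range of 5 points, and introns also a balance p of at least 0.05. p-values were adjusted (Benjamini-Hochberg) over all genes, exons or introns tested, and the gene and exon p-values in the text are these. Log2 fold changes are edgeR's, with their standard errors. Each group was given 1 mean with no term for the siRNA. The p-values therefore count the libraries of both siRNAs of a target as replicates of 1 condition. The scripts were tested on simulated data. The 10 genes and the gene lists were chosen with earlier results of these data known. Of each list, the genes with the largest called rise and fall were named in 3 comparisons (4OHT with siNT, and each target in 4OHT), and for ACTA2 and TPM1 the 5 genes with the highest correlation. A gene list and a gene of another list that this rule gave are not reported here. Intervals are not given for PSI of single libraries, and numbers of reads behind PSI are the authors' corrected ones. Libraries of the same siRNA and treatment differed beyond sampling noise of the counts, so no library was treated as a copy of another. Such a difference cannot show whether they came from separate cultures.

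Alternatives were limma-voom, DESeq2 1.42.0, its size factors, a minimum of 1 count, a replicate block, each siRNA alone, each replicate left out, the library that stood apart left out, and for PSI other filters, an offset of 0.001, a permutation test and reads summed over libraries.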

Additional observations from a re-analysis of the deposited data

Results flagged for a closer look

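Single libraries that lay far from the other 7 of their group were looked for in 126 group values by Dixon's test at the 95% level, which flags about 1 in 20 by chance, and 20 were found. Replicate 4 of siRBM39-08 in 4OHT accounted for 7 of the gene levels, with TAGLN at 105 CPM, CNN1 at 14.3, MYL9 at 988, CALD1 at 321, TPM2 at 1669, MYH9 at 2442 and VCL at 313 CPM, and for the TPM1 downstream exon at 55.8%. In this library the contractile genes TAGLN, CNN1, MYL9, TPM2 and MYH9 were above and CALD1 and VCL below the rest of the group, and its epithelial markers were at 59.1 CPM. The part of those markers in these values was not tested. Replicate 1 of siNT1 in DMSO held the highest ACTA2 (231 CPM), TPM1 (246), TPM4 (1828) and MYH9 (2995) of its group. Replicate 1 of siSF3B1-13 in DMSO held TPM2 at 1166 CPM.

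Among exons, the 67-nt exon of MYL9 was at 96.7% in replicate 4 of siSF3B1-13 in DMSO, the 126-nt exon of TPM1 at 96.25% in replicate 1 of siRBM39-08 in DMSO, the 63-nt exon at 97.46% in replicate 3 of siRBM39-06 in 4OHT and the 70-nt exon at 98.47% in replicate 4 of siNT2 in 4OHT. The MYH9 intron stood out at 0.39% in replicate 4 of siNT2 in DMSO, 1.54% in replicate 2 of siNT2 in 4OHT and 0.85% in replicate 3 of siRBM39-06 in 4OHT, where most other libraries were at 0.

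Effects that differed between DMSO and 4OHT by edgeR's test of the difference were those of siSF3B1 on TPM1 (-0.83, adjusted p = 2.75e-08) and ACTA2 (-0.39, adjusted p = 0.0191) and those of siRBM39 on TPM1 (-0.51, adjusted p = 0.000680) and TAGLN (0.53, adjusted p = 0.0171), all as log2 fold changes in 4OHT less those in DMSO. Those of siSF3B1 on ACTA2 and of siRBM39 on TAGLN were lost in 4 and 6 of 14 alternatives.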

How the results depend on the processing

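The 10 genes fell or did not pass with 4OHT in the same way under most settings. Of 980 log2 fold changes under the alternatives, 894 kept their side of the threshold, 42 newly passed and 41 no longer passed. The remaining 3 changed sign, with a call in the main fit or in the alternative but not in both. Those were ACTA2 after siSF3B1 in DMSO (-0.25 with siSF3B1-13 alone), CALD1 after siSF3B1 in 4OHT (-0.12 with siSF3B1-13 alone) and TPM1 after siRBM39 in DMSO (-0.0071 with siRBM39-06 alone). Among the log2 fold changes and PSI differences that kept their side, 56 changed sign with no call in either fit. The largest of these were 0.145 on the log2 scale and 2.45 points. Of 390 PSI differences, 381 kept their side, 4 newly passed and 5 no longer passed.

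Where at least a 2-fold change was also asked, 3 members were called with 4OHT (18.5% of all genes), 0 after siSF3B1 in DMSO (7.59%), 1 in 4OHT (11.6%), 0 after siRBM39 in either treatment (1.29% and 2.29%) and 0 for each difference of effects (2.23% and 0.43%). With siSF3B1-13 and siRBM39-06 alone the counts were 5 for siSF3B1 in DMSO (82.1% of all genes), 7 for siRBM39 in DMSO (68.9%) and 5 for the difference of siSF3B1 effects (55.4%), and with siSF3B1-16 and siRBM39-08 alone 4 for the difference of siRBM39 effects (26.6%). With siNT1 alone, 1 member was called for siRBM39 in DMSO (32.5%) and 1 for each difference of effects (23.5% and 5.37%). With siNT2 alone, 1 was called for siSF3B1 in DMSO (64.0%), 1 for siRBM39 in DMSO (32.2%) and 1 for each difference of effects (25.4% and 6.29%). The difference of siSF3B1 effects counted 4 members with a minimum of 1 count (25.6%) and 5 without replicate 4 of siRBM39-08 in 4OHT (46.96%). Leaving out each replicate number in turn gave 1 to 3 members for siRBM39 in DMSO (33.3% to 50.5% of all genes), 1 to 3 for the difference of siSF3B1 effects (26.2% to 37.6%) and 1 to 2 for the difference of siRBM39 effects (6.58% to 21.3%). The causes of these changes were not tested.

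Asking for 10 points of PSI left 0 exons after siSF3B1 in 4OHT and 2 after siRBM39 in each treatment. Without the balance filter, 2 introns were called after siSF3B1 in DMSO, 3 in 4OHT and 1 after siRBM39 in 4OHT, all in TPM2. With the replicate number as a block, the 5 effects called 9, 3, 4, 3 and 6 members. Of all genes, 77.7%, 72.3%, 76.5%, 45.1% and 55.2% were called there. Each difference of effects called 2 members (36.8% and 13.3% of all genes), and the 5 effects called 3, 3, 3, 4 and 4 exons. The block moved no count. Under the settings of this paragraph, shares of all exons and introns are not given. The labels give no pairing, and libraries of the same number did not deviate together (median r = 0.01 over 264 pairs, and 15 of 48 libraries were closest to their own number). Depth limits the 79-nt exon of TPM1 most, at 34 to 161 reads.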

Other observations

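Genes of the TGF-beta pathway, which drives fibroblasts towards myofibroblasts, rose more often than they fell after siSF3B1. Of 19 tested, 15 rose and 2 fell in DMSO (36.5% and 36.2% of all genes) and 14 rose and 3 fell in 4OHT (39.4% and 37.6%). The median log2 fold changes were 0.37 and 0.38 against 0.02 and 0.03 over all genes. In 4OHT, BAMBI, a decoy receptor that dampens the pathway, rose the most, from a mean of 15.9 CPM to 52.4 CPM, and LTBP2, a matrix protein related to those that store latent TGF-beta, fell from 720.0 to 362 CPM. With 4OHT itself, 8 rose and 9 fell (39% and 39.1% of all genes). INHBA, which encodes activin A, rose from 71.4 ± 7.11 to 1369 ± 108 CPM (SD, n = 8), and TGFBR3, a co-receptor, fell from 36.7 to 5.64 CPM. After siRBM39, 4 rose and 2 fell in DMSO (23.9% and 22.2% of all genes) and 8 and 6 in 4OHT (32.2% and 24.3%), where BAMBI rose to 35.6 CPM.

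Of 11 splicing factors known to act on tropomyosin or other muscle exons, 2 rose and 6 fell with 4OHT (39% and 39.1% of all genes). After siSF3B1, 5 rose and 4 fell in DMSO (36.5% and 36.2%) and 4 and 6 in 4OHT (39.4% and 37.6%). After siRBM39, 3 rose and 2 fell in DMSO (23.9% and 22.2%) and 4 and 3 in 4OHT (32.2% and 24.3%). PTBP2, a repressor that binds pyrimidine-rich introns, fell from 16.9 to 6.91 CPM with 4OHT, while CELF1 rose from 36.8 to 45.7 CPM. In 4OHT, PTBP2 rose to 16.0 CPM after siSF3B1 and to 15.5 CPM after siRBM39, while HNRNPH1 fell from 151 to 93.3 and 112 CPM. Whether PTBP2 bears on the TPM1 pair was not tested.

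Over the 48 libraries, the genes whose log2(CPM + 1) followed ACTA2 most closely outside the set were ERBB2 (r = 0.990), KCNH2 (0.985), KIAA0101 (0.983), LBH (0.982) and PTN (0.982), and those for TPM1 were TJP1 (0.936), FAM55C (0.926), KIAA0368 (0.926), CCDC46 (0.922) and OPA1 (0.911), among 9991 genes. The libraries share treatments and siRNAs, so these values describe the groups. Within the set, TAGLN and CNN1 were the closest pair (r = 0.981), and TPM1 and TPM2 the least alike (r = 0.31).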
